A study of Mus musculus with 12 samples.

Results

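STAT transcription factors and the JAK kinases that activate them were followed in mouse macrophages. The members were the genes Stat2, Stat3, Stat4, Stat5a, Stat5b, Stat6, Jak1, Jak2 and Tyk2, taken by exact gene symbol from the platform annotation of the deposited value table. These are 9 of 22180 genes with a symbol of their own on the array, 6 of them STATs and 3 of them JAK kinases. Each member had 1 row, and 9 of 9 passed the filter on dim rows that left 14079 tested genes.

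Macrophages were cultured from marrow with L929-conditioned medium, and their RNA was hybridized to 12 Affymetrix Mouse Gene 2.1 ST arrays, with 3 arrays in each of 4 groups. The groups were Rasgef1b_fl/fl_vav-icre cells with R848, wild-type cells with R848, Rasgef1b_fl/fl_vav-icre cells with saline, and wild-type cells with saline. R848 is a small agonist of the endosomal receptor TLR7 and was given for 4 h, while the labels give no time for saline. The Vav promoter drives Cre in blood-forming cells, the labels name no group that carries Cre alone, and they do not say whether the replicates came from separate animals or cultures. Effects of Cre and of Rasgef1b loss can therefore not be told apart, and each p-value reflects array-to-array spread that may be purely technical.

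JAK kinases sit on the inner tails of cytokine receptors. When a cytokine joins the receptor chains, the kinases phosphorylate each other and the receptor, and STAT proteins that dock there are phosphorylated, pair up and move to the nucleus to bind DNA. In macrophages these routes carry the signals of interferons, of interleukin 6 and interleukin 10, of granulocyte-macrophage colony-stimulating factor and of interleukin 4. SOCS proteins, themselves products of STAT-driven transcription, shut these routes down again. The arrays measure mRNA and not phosphorylation, so none of the values below shows whether a STAT was active.

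Promoter windows from RefSeq (build GRCm38.p6) were available for 9 of 9 members, 12 windows in all, each with 250 bases before and 50 bases after an annotated transcription start. They were searched on both strands for 3 motifs. The first was the STAT site TTCNNNGAA, the second the same site with 4 spacer bases, the spacing known for STAT6, and the third the core of the interferon response element, GAAA, any 2 bases and GAAA, which STAT2 binds together with IRF9 and which reads TTTC, 2 bases and TTTC on the opposite strand. Windows of 2 members held a match, and these are shown with the window of Jak2, the member with the largest response to R848, which held none. Capitals mark the matches. The windows lie at chr10:128270248-128270547 for Stat2, chr1:52007990-52008289 for Stat4 (its second annotated start) and chr19:29251553-29251852 for Jak2, all on the plus strand.
Stat2: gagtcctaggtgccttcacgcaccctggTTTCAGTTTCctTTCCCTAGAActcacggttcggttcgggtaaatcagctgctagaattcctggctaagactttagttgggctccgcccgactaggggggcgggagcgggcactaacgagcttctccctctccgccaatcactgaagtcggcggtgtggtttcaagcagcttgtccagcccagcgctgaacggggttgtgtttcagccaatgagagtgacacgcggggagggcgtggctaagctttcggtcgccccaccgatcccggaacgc
Stat4: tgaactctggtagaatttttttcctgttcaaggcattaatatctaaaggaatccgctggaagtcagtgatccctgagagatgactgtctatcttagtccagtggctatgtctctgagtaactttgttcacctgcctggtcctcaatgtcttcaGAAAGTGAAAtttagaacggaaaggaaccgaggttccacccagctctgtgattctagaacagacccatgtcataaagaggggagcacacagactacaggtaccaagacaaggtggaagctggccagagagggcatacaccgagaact
Jak2: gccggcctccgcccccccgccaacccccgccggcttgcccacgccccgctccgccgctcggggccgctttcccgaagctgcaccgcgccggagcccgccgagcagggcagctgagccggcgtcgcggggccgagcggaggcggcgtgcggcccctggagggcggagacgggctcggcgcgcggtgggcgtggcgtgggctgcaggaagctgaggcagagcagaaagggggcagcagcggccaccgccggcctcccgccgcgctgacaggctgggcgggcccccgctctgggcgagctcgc
In the Stat2 window the interferon core TTTCAGTTTC lies from base -222 to base -213 relative to the start, and the STAT site with 4 spacer bases, TTCCCTAGAA, from -210 to -201. In the Stat4 window the interferon core GAAAGTGAAA lies from -97 to -88. Of all 32851 windows in the table, 3.44% held the interferon core, 6.95% held the STAT site with 4 spacer bases and 8.3% held TTCNNNGAA, which occurred in 0 of the 12 windows of the members. The Jak2 window was 81% G and C, against 59.3% for Stat2 and 46% for Stat4. A match describes the letters and does not show that a factor binds there. In the RefSeq gene table of that assembly, Stat5b, Stat5a and Stat3 follow each other on chromosome 11 with no protein-coding gene between them, Stat2 and Stat6 lie apart from each other on chromosome 10, Stat4 lies on chromosome 1, Jak1 on 4, Jak2 on 19 and Tyk2 on 9.

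Values are log2 intensities after RMA, which gives the arrays a near-common distribution, so a difference of 1 is a doubling and levels of different genes are not comparable. Pearson correlations over the tested genes were 0.9909 to 0.9964 within groups and 0.9159 to 0.9945 between groups. Of the macrophage markers, 9 of 9 measured lay above the dim limit on every array, as did 1 of 7 T cell markers (Cd4), 1 of 4 B cell markers (Cd79b) and 1 of 6 NK cell markers (Prf1). Of the others, the T cell gene Zap70 did so on 10 of 12 arrays, the NK cell genes Klrb1c on 4 and Ncr1 on 1, and 5 T cell markers with Cd3e, Cd3d and Cd3g, 3 B cell markers with Cd79a and Ms4a1 and 3 NK cell markers on 0. Fibroblast markers lay above the limit on every array for 3 of 5, the collagen genes Col1a1, Col1a2 and Col3a1, and on 0 arrays for 2, Dcn and Pdgfra. Rasgef1b, the targeted gene, measured 9.45, 8.60 and 9.36 in knockout cells with R848, against 9.84, 9.84 and 9.69 in wild-type cells with R848. With saline it measured 8.63, 7.88 and 8.72 in knockout cells, against 9.03, 9.19 and 9.14 in wild-type cells. The knockout arrays were lower in both treatments without overlap, by 0.68 ± 0.15 averaged over treatments (SE, limma adjusted p = 0.036). Within R848 arrays alone the difference of -0.65 did not pass (limma adjusted p = 0.333), nor did that of -0.71 within saline arrays (adjusted p = 0.158), and the row kept a clear signal in knockout cells. Which exons its probes cover was not examined.

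R848 changed the mRNA of most members, and did so in both genotypes. Jak2 and Stat5a had the largest increases, Stat3, Stat2, Tyk2 and Jak1 smaller ones, and Stat6 and Stat4 fell. In each genotype 6 members were higher, 2 were lower and 1, Stat5b, did not pass the test. At an adjusted p of 0.05 (limma, Benjamini-Hochberg), 41.6% of all tested genes passed in knockout cells, 15.6% higher and 26% lower. In wild-type cells 38.3% passed, 14.6% higher and 23.6% lower. The share of higher genes among those called was 37.4% in knockout cells and 38.3% in wild-type cells, and 63.6% in knockout cells and 62.2% in wild-type cells with each array centred on the median of the tested genes. Averaged over genotypes 9 of 9 members passed, where 50% of the tested genes did. The R848 and saline arrays did not overlap for 9 of 9 members in knockout cells, where this held for 48.8% of all tested genes, and for 8 of 9 in wild-type cells, where it held for 48.1%. The median change of the members was 0.72 in knockout cells and 0.77 in wild-type cells, where all tested genes had medians of -0.03 in knockout cells and -0.02 in wild-type cells. Regardless of sign, the median size of change over all tested genes was 0.19 in knockout cells and 0.17 in wild-type cells.

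**Figure D1:**
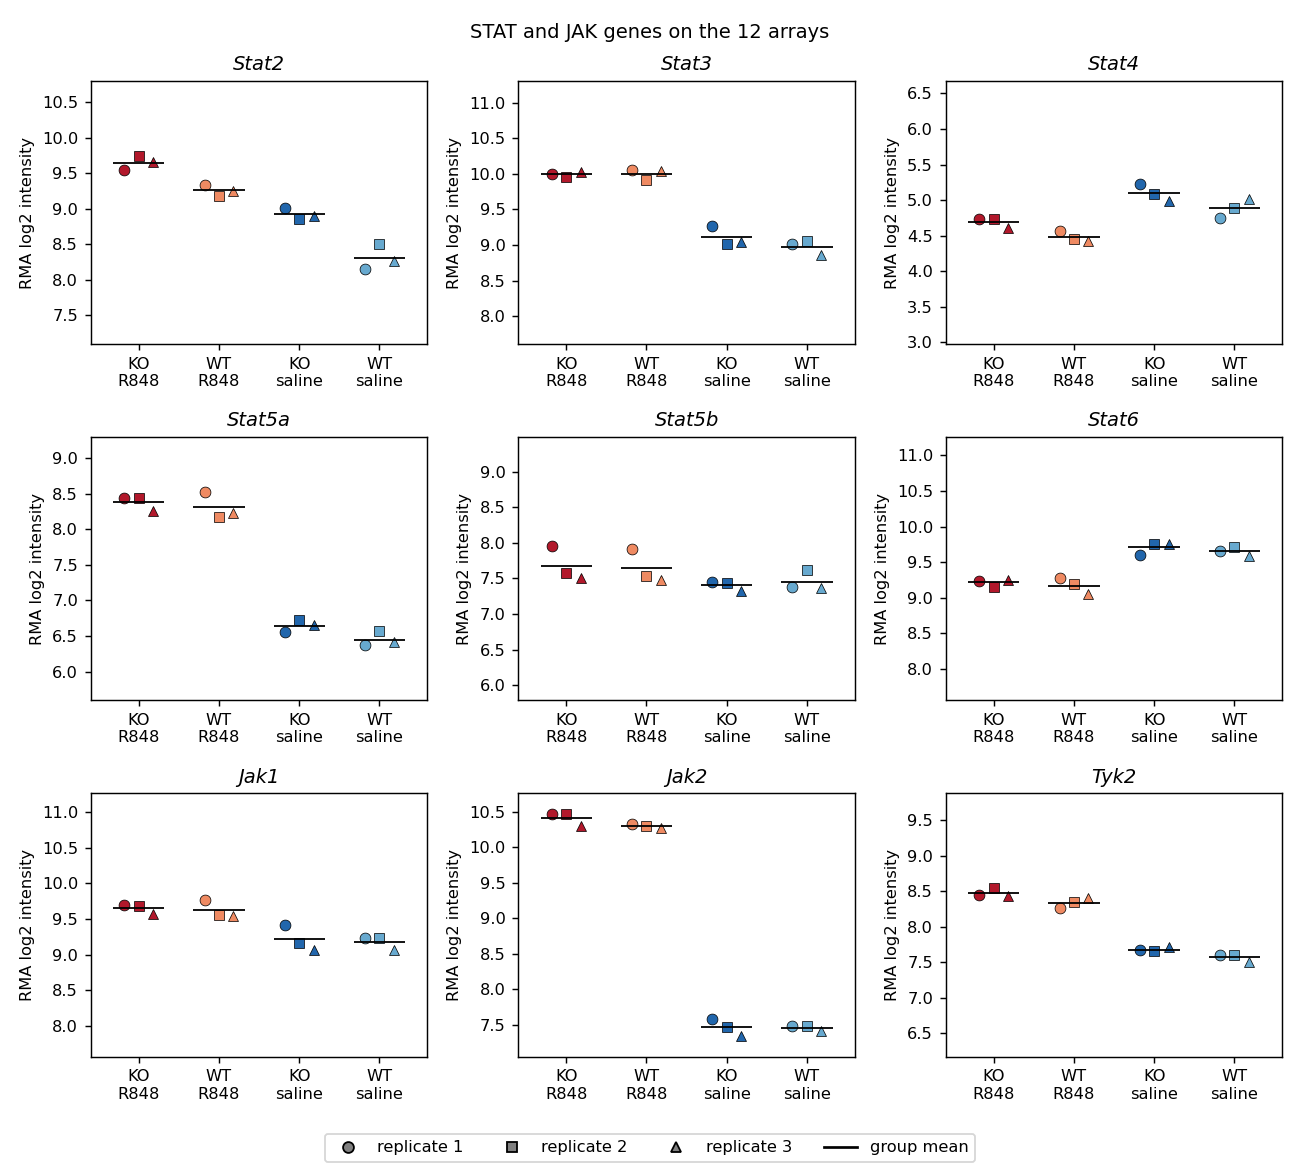
RMA log2 intensity of each STAT and JAK gene on the 12 arrays, by group (KO, knockout; WT, wild type), with 1 point per array and a line at the group mean; each panel has its own axis of equal span. Jak2 and Stat5a show the widest gap between R848 and saline, Stat6 and Stat4 are lower with R848 in each genotype, and the 4 groups of Stat2 and of Tyk2 do not overlap.

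Among the kinases, Jak2 serves the receptors for interferon gamma, the interleukin 12 family and granulocyte-macrophage colony-stimulating factor. It measured 10.47, 10.46 and 10.30 in knockout cells with R848, against 7.59, 7.47 and 7.34 with saline. In wild-type cells it measured 10.33, 10.30 and 10.27 with R848, against 7.48, 7.49 and 7.42 with saline. Every R848 array lay far above every saline array, and the arrays of the 2 genotypes overlapped within each treatment. The increase was 2.94 ± 0.08 in knockout cells (7.69-fold, limma adjusted p = 7.44e-13) and 2.84 ± 0.08 in wild-type cells (7.14-fold, adjusted p = 1.24e-12). A change of larger size was found in 0.625% of the tested genes in knockout cells and in 0.682% in wild-type cells.

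Tyk2 pairs with Jak1 at the type I interferon receptor and also serves interleukin 10 and interleukin 12. With R848 it measured 8.45, 8.55 and 8.43 in knockout cells, against 7.67, 7.66 and 7.71 with saline. In wild-type cells the values were 8.27, 8.35 and 8.40 with R848, against 7.61, 7.60 and 7.50 with saline. The 4 groups followed each other without overlap, knockout with R848 highest and wild type with saline lowest. The increase with R848 was 0.80 ± 0.07 in knockout cells (limma adjusted p = 2.71e-07) and 0.77 ± 0.07 in wild-type cells (adjusted p = 4.39e-07).

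Jak1 is the kinase shared by the interferon, interleukin 6 and interleukin 4 receptor families. It measured 9.70, 9.68 and 9.57 in knockout cells with R848, against 9.41, 9.16 and 9.07 with saline. Wild-type cells gave 9.76, 9.56 and 9.54 with R848, against 9.23, 9.23 and 9.07 with saline. All R848 arrays were above all saline arrays, with genotypes mixed, and the increase was 0.44 ± 0.10 in both genotypes (limma adjusted p = 0.0018 in knockout cells and 0.0017 in wild-type cells).

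Among the STATs that rose, Stat5a encodes a factor, though not the only one, through which granulocyte-macrophage colony-stimulating factor and interleukin 3 act. It measured 8.44, 8.44 and 8.26 in knockout cells with R848, against 6.55, 6.73 and 6.66 with saline. In wild-type cells the values were 8.52, 8.18 and 8.23 with R848, against 6.37, 6.57 and 6.41 with saline. Treatments were fully separated and genotypes overlapped. The increase was 1.73 ± 0.10 in knockout cells (3.33-fold, limma adjusted p = 2.21e-09) and 1.86 ± 0.10 in wild-type cells (3.63-fold, adjusted p = 1.15e-09).

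Stat5b, the neighbouring paralog of Stat5a, did not pass in either genotype. It measured 7.95, 7.58 and 7.51 in knockout cells with R848, against 7.45, 7.44 and 7.32 with saline. In wild-type cells it measured 7.92, 7.54 and 7.48 with R848, against 7.38, 7.62 and 7.37 with saline. Replicate 1 of each R848 group stood above the other arrays, and in wild-type cells R848 and saline overlapped. The difference was 0.28 ± 0.13 in knockout cells (limma adjusted p = 0.103) and 0.19 ± 0.13 in wild-type cells (adjusted p = 0.285). With the replicate number as a block within the knockout arrays, whose numbers deviated together, the knockout difference had an adjusted p of 0.0378. Averaged over genotypes it was 0.23 (limma adjusted p = 0.0454), a call that was lost with no filter on dim rows (adjusted p = 0.0622), with array weights (0.19, adjusted p = 0.0947) and when any of 7 arrays was left out, with 0.17 as the smallest difference among those (without replicate 1 of either R848 group, adjusted p = 0.120). Because the coding sequences of Stat5a and Stat5b are close copies, some probes could respond to both, which was not tested.

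Stat3 carries the signals of interleukin 6 and interleukin 10. It measured 10.00, 9.96 and 10.03 in knockout cells with R848, against 9.27, 9.01 and 9.04 with saline. Wild-type cells gave 10.05, 9.92 and 10.04 with R848, against 9.01, 9.06 and 8.86 with saline. R848 arrays lay above saline arrays throughout, with the genotypes overlapping. The increase was 0.89 ± 0.08 in knockout cells (limma adjusted p = 6.74e-07) and 1.03 ± 0.08 in wild-type cells (adjusted p = 1.62e-07).

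Stat2 joins IRF9 in the complex that type I interferon sends to interferon response elements. It measured 9.54, 9.74 and 9.66 in knockout cells with R848, against 9.01, 8.86 and 8.90 with saline. In wild-type cells it measured 9.34, 9.18 and 9.25 with R848, against 8.15, 8.50 and 8.26 with saline. As for Tyk2, the 4 groups did not overlap, and the order was knockout with R848, wild type with R848, knockout with saline, wild type with saline. With R848 Stat2 rose by 0.72 ± 0.09 in knockout cells (limma adjusted p = 1.64e-05) and by 0.95 ± 0.09 in wild-type cells (adjusted p = 1.03e-06).

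Stat6, the factor of interleukin 4 and interleukin 13, went the other way. It measured 9.24, 9.15 and 9.25 in knockout cells with R848, against 9.60, 9.76 and 9.76 with saline. In wild-type cells the values were 9.27, 9.19 and 9.05 with R848, against 9.66, 9.71 and 9.59 with saline. Every R848 array was below every saline array. The change was -0.49 ± 0.08 in knockout cells (limma adjusted p = 0.000126) and -0.48 ± 0.08 in wild-type cells (adjusted p = 0.000164).

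Stat4, the factor of interleukin 12, was the dimmest member and lay just above the dim limit of 4.31 to 4.35. Its values were 4.73, 4.73 and 4.61 in knockout cells with R848, against 5.23, 5.09 and 4.99 with saline. In wild-type cells they were 4.57, 4.45 and 4.42 with R848, against 4.75, 4.89 and 5.02 with saline. Within each genotype the R848 arrays were lower without overlap, with a change of -0.41 ± 0.09 in both (limma adjusted p = 0.0014 in knockout cells and 0.0018 in wild-type cells). With each array centred on the median of the tested genes the change was -0.27 in knockout cells and -0.28 in wild-type cells, still past the threshold. Stat4 is best known from T and NK cells. The T cell markers given above averaged 4.02 to 4.15 per array over the 4 groups and the NK cell markers 3.86 to 3.99, and their part in the Stat4 signal was not tested.

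**Figure D2:**
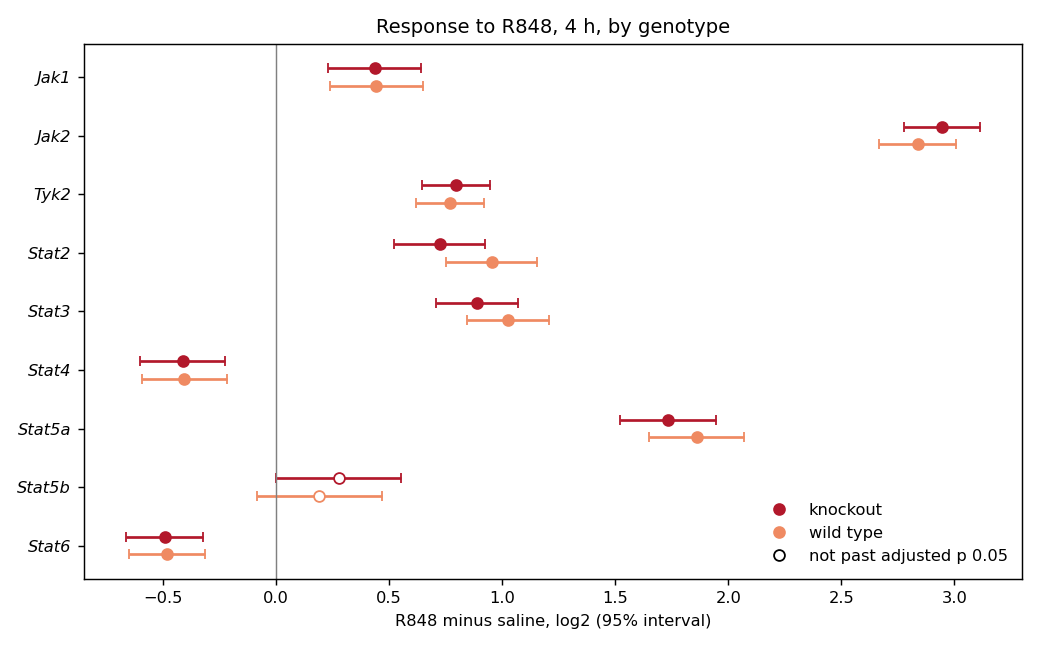
R848 minus saline (log2) for each member in knockout and wild-type cells, with the 95% interval of limma's estimate from 3 arrays a group; open points did not pass an adjusted p of 0.05. Jak2 (knockout 2.94, wild type 2.84) and Stat5a (knockout 1.73, wild type 1.86) lie far right, Stat6 and Stat4 lie left of 0, and Stat5b is open in both genotypes.

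The responses of the 2 genotypes were compared by the difference between them. This difference passed the test for 0 of 9 members (limma), and 0 had an unadjusted p under 0.05. Of all tested genes 0.0142% passed and 4.93% had an unadjusted p under 0.05. The widest estimate was that of Stat2, whose response in knockout cells minus that in wild-type cells was -0.23 ± 0.13 (95% interval -0.51 to 0.05, limma adjusted p = 0.986). For Jak2 the difference between responses was 0.11 with an interval of -0.13 to 0.35, and for Stat5a it was -0.13 with an interval of -0.42 to 0.17. All 3 intervals include 0.

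Between the genotypes, Stat2 was the 1 member that passed the test. Its level with saline was higher in knockout cells by 0.62 ± 0.09 (1.54-fold, 95% interval 0.42 to 0.82, limma adjusted p = 0.0107), a difference larger in size than that of all but 0.277% of the tested genes. With R848 the difference was 0.39 (1.31-fold, interval 0.19 to 0.59) and did not pass (limma adjusted p = 0.189). Averaged over treatments it was 0.51 ± 0.07 (limma adjusted p = 0.0023). The count with saline was thus 1 of 9 members, where 0.334% of all tested genes passed and 0.142% were higher. With R848 it was 0 of 9, where 0.135% passed. Stat2 and Stat4 had an unadjusted p under 0.05 with R848, as did 8.74% of all tested genes. Averaged over treatments it was 1 of 9, where 1.78% passed and 0.774% were higher.

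The saline call of Stat2 did not hold without replicate 1 of wild type with saline (0.54, limma adjusted p = 0.0515), without replicate 3 of that group (0.60, adjusted p = 0.0605), or when only the 6 arrays with saline were fitted (adjusted p = 0.0755). Averaged over treatments, the difference passed with each of the 12 arrays left out in turn, between 0.47 and 0.55.

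For the other members the genotype differences did not pass. Stat4 differed by 0.22 with saline (limma adjusted p = 0.316) and by 0.21 with R848 (adjusted p = 0.510), higher in knockout cells. Tyk2 differed by 0.11 with saline (limma adjusted p = 0.552) and by 0.14 with R848 (adjusted p = 0.614). Knockout and wild-type arrays did not overlap for Stat2 and Tyk2 with saline, where this held for 16.1% of all tested genes, and for Stat2, Stat4 and Tyk2 with R848, where it held for 13.8%. Stat5a differed by 0.20 with saline and 0.07 with R848, and Stat3 by 0.13 with saline and -0.01 with R848. For Jak2 the 95% interval of the difference ran from -0.17 to 0.17 with saline and from -0.06 to 0.28 with R848. Values for Jak1, Stat6 and Stat5b lay between -0.05 and 0.05.

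**Figure D3:**
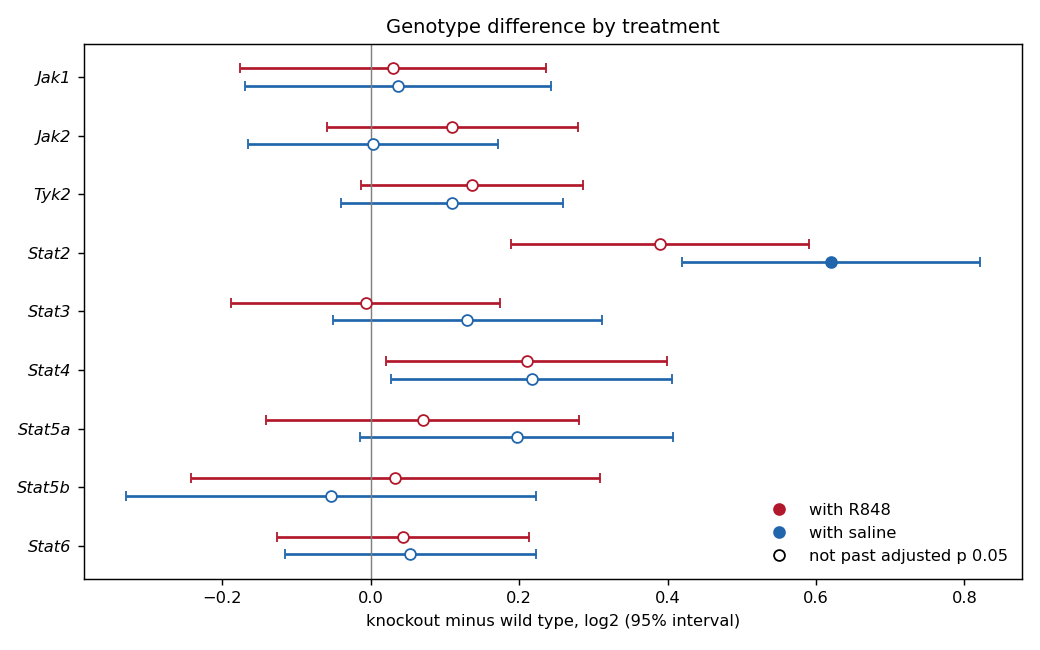
Knockout minus wild type (log2) for each member with R848 and with saline, with 95% intervals of limma's estimate from 3 arrays a group; open points did not pass an adjusted p of 0.05. Stat2 with saline, at 0.62, is the only filled point, and the Stat2 intervals lie right of 0 in both treatments.

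The genes around the members were taken from lists by role, and their values are R848 minus saline in log2. The lists of ligands, receptor chains and inhibitors were drawn up with earlier results of these data known. Their counts beside the shares of all tested genes are therefore description only. Among 13 tested of 24 ligands that signal through JAK kinases, 8 rose in each genotype and 0 fell, with SEs of 0.07 to 0.20. Over all tested genes, 15.6% rose and 26% fell in knockout cells, and 14.6% rose and 23.6% fell in wild-type cells. Il12b, a subunit of interleukin 12 and interleukin 23 whose receptors use Jak2 and Tyk2, rose by 4.73 in knockout cells and 4.42 in wild-type cells. Il6 was at or below the dim limit on all 6 saline arrays, so its change is a lower bound, taken against the dim limit. It was at least 10.5-fold higher with R848 in knockout cells and at least 9.38-fold in wild-type cells. Its test used the measured differences and not these bounds (knockout 4.36, limma adjusted p = 4.45e-12, wild type 4.20, adjusted p = 7.34e-12). Because Il6 passed the filter on dim rows only through its R848 arrays, these p-values and its place among the 8 ligands that rose add no support. Il10, the anti-inflammatory ligand of Stat3, rose by 2.97 in knockout cells and 3.12 in wild-type cells. Both chains of interleukin 27, which signals through Jak1 and Jak2, rose, with Il27 at 3.26 in knockout and 3.31 in wild-type cells and Ebi3 at 2.06 in knockout and 2.15 in wild-type cells. Il15 rose by 1.77 in knockout cells and 1.46 in wild-type cells. The interferon gene Ifnb1 was too dim to be tested, and Ifna4 did not pass (knockout -0.24, wild type -0.16).

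Csf3, which encodes granulocyte colony-stimulating factor, rose by 0.53 in knockout cells. In wild-type cells it was at or below the dim limit on 3 of 3 saline arrays and rose at least 2.42-fold, with a measured difference of 1.45. In knockout cells 2 of 3 saline arrays were above the limit. It was the median gene of the tested ligands, at 0.53 in knockout cells and at 1.45 in wild-type cells, or 1.27 with dim genes at their bound. With R848 it averaged 4.87 ± 0.09 in knockout cells and 5.60 ± 0.17 in wild-type cells (SD, n = 3 each), a difference of -0.73 (limma adjusted p = 0.0076). That call was lost without replicate 2 of knockout with R848 (-0.68, limma adjusted p = 0.0725) or replicate 2 of wild type with R848 (-0.64, adjusted p = 0.0579). The difference between the responses, which rests on the measured saline values, did not pass (-0.91, limma adjusted p = 0.127).

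Of the receptor chains, 22 of 28 measured were tested, with SEs of 0.07 to 0.15. With R848, 10 rose and 7 fell in knockout cells, and 9 rose and 8 fell in wild-type cells. The share of all tested genes that passed was 41.6% in knockout cells and 38.3% in wild-type cells. Il4ra, through which Stat6 is activated, rose by 2.29 in knockout cells and 2.58 in wild-type cells, on arrays where Stat6 itself fell. Its partner Il13ra1 rose by 2.18 in knockout cells and 2.10 in wild-type cells. Csf3r, the receptor for the product of Csf3, rose by 2.16 in knockout cells and 2.45 in wild-type cells. The chains of the interleukin 6 receptor went down while Il6 and Stat3 went up: Il6ra fell by 2.04 in knockout cells and 1.82 in wild-type cells. Il6st, the gp130 chain shared by the interleukin 6 family, fell by 1.69 in knockout cells and 1.49 in wild-type cells. Lifr, a further partner of gp130, fell by 1.97 in knockout cells and 1.57 in wild-type cells, and Il7r by 1.75 in knockout cells and 1.64 in wild-type cells. Ifnar1, the Tyk2-binding chain of the type I interferon receptor, rose by 0.66 in knockout cells and 0.82 in wild-type cells. Between the genotypes, averaged over treatments, Il10ra, the interleukin 10 receptor chain that binds Jak1, was 0.26 higher in knockout cells (limma adjusted p = 0.0452), a call kept in 7 of 22 alternative settings and lost whichever of the 12 arrays was left out; the settings counted leave out a minimum log2 change of 1, which a difference of this size cannot pass.

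Of 20 inhibitors and phosphatases, 9 rose and 5 fell with R848 in each genotype, with SEs of 0.06 to 0.12. Beside this, 41.6% of all tested genes passed in knockout cells and 38.3% in wild-type cells. Socs3, the feedback inhibitor of gp130 signalling, rose by 4.79 in knockout cells and 4.64 in wild-type cells. Its saline means were near the dim limit, at 4.52 in knockout cells and 4.74 in wild-type cells. Socs1, which inhibits JAK kinases at the interferon receptors, rose by 1.47 in knockout cells and 1.63 in wild-type cells, from saline levels near the dim limit that exceeded it on 2 of 3 arrays in each genotype. Ptpn2, a phosphatase of JAK and STAT proteins, rose by 0.88 in knockout cells and 0.60 in wild-type cells. Sh2b3, an adaptor that restrains Jak2, fell by 1.46 in knockout cells and 1.27 in wild-type cells, and Pias2, of a family of STAT inhibitors, by 0.72 in knockout cells and 0.68 in wild-type cells. Socs2 and Cish, known as targets of Stat5, did not pass, with 0.01 and 0.18 in knockout cells and -0.02 and 0.05 in wild-type cells. Usp18, which blocks the type I interferon receptor and is itself interferon-induced, rose by 2.52 in knockout cells and 2.73 in wild-type cells. Averaged over treatments it was also 0.48 ± 0.09 higher in knockout cells than in wild-type cells (limma adjusted p = 0.0161), a call kept in 22 of 22 alternative settings counted the same way, but again below a minimum log2 change of 1.

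**Figure D4:**
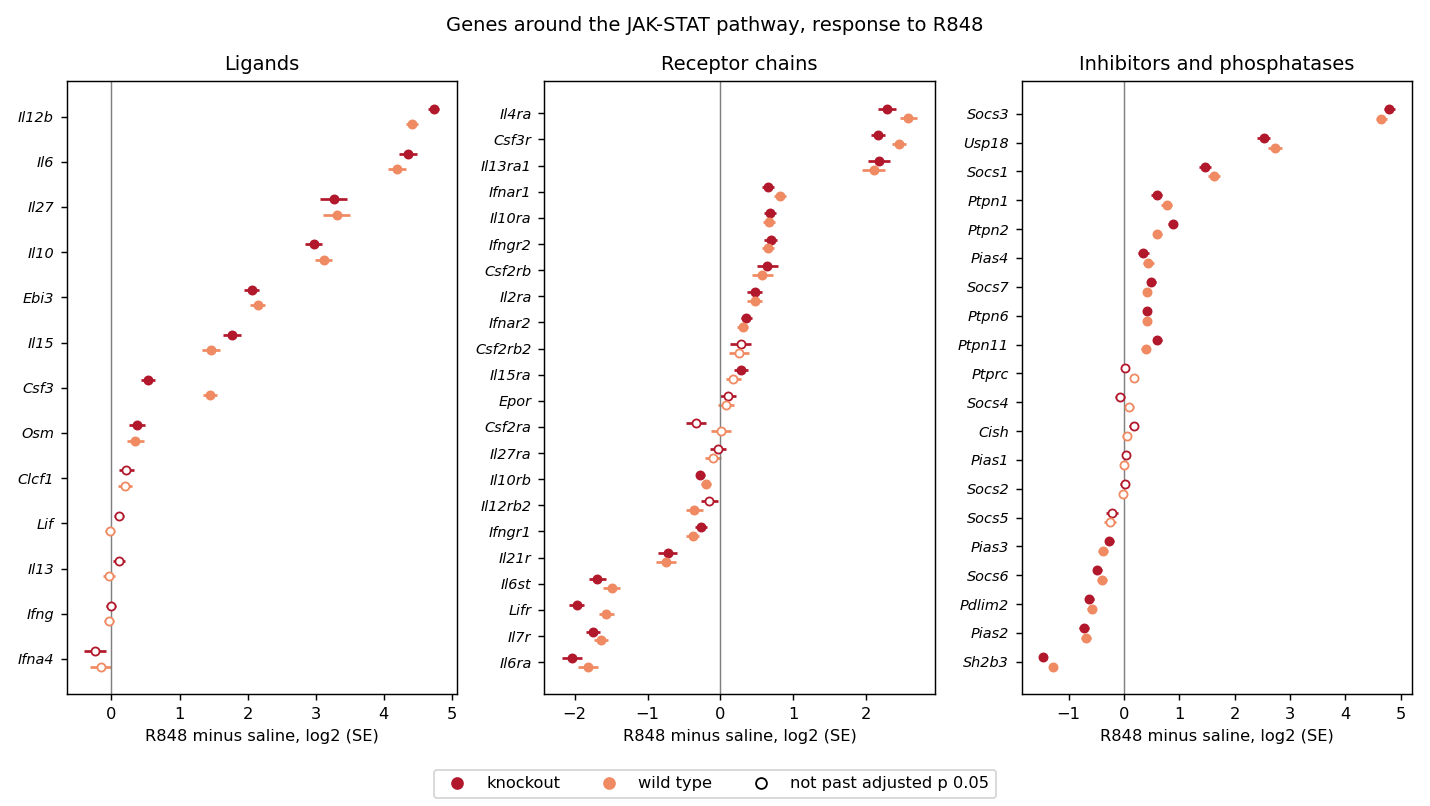
R848 minus saline (log2, bars give the SE) for the tested ligands, receptor chains, and inhibitors and phosphatases in knockout and wild-type cells, 3 arrays a group; open points did not pass an adjusted p of 0.05. Il12b, Il6 and Socs3 lie beyond 4 in both genotypes, though Il6 and wild-type Csf3 are measured values against saline arrays below the dim limit, Il6ra and Lifr lie left of -1.5, and Csf3 shows the widest gap between the genotypes among the ligands.

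Lists of genes linked to single STATs differed in how many members rose and fell with R848. These lists were drawn up with earlier results of these data known. Their counts beside the shares of all tested genes are therefore description only. Over all tested genes, 15.6% rose and 26% fell in knockout cells, and 14.6% rose and 23.6% fell in wild-type cells. Of 14 tested genes linked to Stat3, 13 rose and 1 fell in knockout cells, with a median of 2.12, and 12 rose and 1 fell in wild-type cells, with a median of 2.11. Besides Socs3 these included Nfkbiz (knockout 4.24, wild type 4.25), Bcl3 (knockout 3.01, wild type 3.15) and Cebpd (knockout 2.52, wild type 2.56). Cebpd, like Socs3, started near the dim limit, with a saline mean of 4.44 in each genotype. Of 10 genes linked to Stat5, 5 rose and 1 fell in knockout cells, with a median of 0.21, and 4 rose and 1 fell in wild-type cells, with a median of 0.22, or 0.15 with the dim gene Id1 at its bound. The kinase genes Pim1 (knockout 2.85, wild type 2.60) and Pim2 (knockout 1.40, wild type 1.60) and the cyclin gene Ccnd2 (knockout 1.72, wild type 1.16) were among those that rose. Of 10 tested genes linked to Stat6, 4 rose and 5 fell in knockout cells, and 4 rose and 3 fell in wild-type cells. The chemokine genes Ccl22 (knockout 4.09, wild type 4.12) and Ccl17 (knockout 1.54, wild type 1.56) rose, whereas Klf4, a transcription factor (knockout -0.79, wild type -0.84), and Mrc1, the mannose receptor (knockout -0.78, wild type -0.76), fell. The lists share genes, such as Socs3, Pim1 and Il4ra, and many of their genes are known to respond to other factors as well.

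Interferon-induced genes are the known targets of the complex that contains Stat2. Their list, too, was drawn up with earlier results of these data known. Its counts beside the shares of all tested genes, in every comparison below, are description only. Of 21 measured, 15 rose with R848 and 0 fell in knockout cells, with a median change of 0.97, and 16 rose and 0 fell in wild-type cells, with a median of 0.96. The share of all tested genes that rose was 15.6% in knockout cells and 14.6% in wild-type cells. Mx1, an antiviral GTPase, rose by 2.68 in knockout cells and 3.01 in wild-type cells. Ifit1, which binds foreign RNA, rose by 2.22 in knockout cells and 2.51 in wild-type cells. Irf9, which joins Stat2 on DNA, changed by 0.18 in knockout cells (limma adjusted p = 0.119) and rose by 0.28 in wild-type cells (adjusted p = 0.0187).

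Between genotypes with saline, 3 of the 21 were higher in knockout cells and 0 lower, where 0.142% of all tested genes were higher. Mx1 averaged 6.27 ± 0.06 in knockout cells and 5.42 ± 0.31 in wild-type cells (SD, n = 3 each), a difference of 0.85 (limma adjusted p = 0.034). Ifit1 averaged 7.90 ± 0.10 in knockout cells and 7.23 ± 0.17 in wild-type cells, a difference of 0.67 (limma adjusted p = 0.0136). Rsad2, the antiviral enzyme viperin, lay between 8.89 and 9.07 in knockout cells and between 8.33 and 8.56 in wild-type cells, a difference of 0.55 (limma adjusted p = 0.0432). The arrays of the genotypes did not overlap for any of these 3 genes, where this held for 16.1% of all tested genes. As the 3 were picked by the test on these same arrays, this adds no support. The median difference over the list was 0.30 with saline, where all tested genes had a median of -0.01.

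With R848 the median difference was also 0.30, where all tested genes had -0.02. With R848 0 of 21 passed (limma), where 0.135% of all tested genes did, while 14 had an unadjusted p under 0.05, as did 8.74% of all tested genes. Averaged over treatments 9 were higher in knockout cells and 0 lower, where 0.774% of all tested genes were higher. These 9 were led by Mx1 at 0.69, Ifit1 at 0.53, Cmpk2 at 0.52 and Ifit2 at 0.49. Irf9 differed by 0.12 with saline and 0.02 with R848 and did not pass.

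The saline count of 3 was 0 without replicate 2 of knockout with saline, without replicate 1 or replicate 3 of wild type with saline, or with only the arrays compared, and 1 without replicate 1 of knockout with saline or replicate 3 of wild type with R848. By gene, the saline call was kept in 20 of 24 alternative settings for Ifit1, in 17 for Mx1 and in 13 for Rsad2, with a minimum log2 change of 1 left out of these counts. The averaged count of 9 was 5 without replicate 2 of wild type with R848 and 6 without replicate 2 of knockout with saline.

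Of 7 dendritic cell markers, 5 were above the dim limit on all 12 arrays, Siglech on 3 and Zbtb46 on 0. With saline they averaged 5.72 to 5.80 per array in knockout cells and 5.51 to 5.81 in wild-type cells. Between genotypes 0 of 6 tested passed (limma). The lowest adjusted p-values among them with saline were those of Cd209a (0.52, limma adjusted p = 0.0716) and Xcr1 (0.27, adjusted p = 0.231), both higher in knockout cells. Of 7 neutrophil markers, 2 were tested, 1 was above the limit on 1 array and 4 on 0, among them S100a8, Ly6g and Mpo. The neutrophil list averaged 3.83 to 3.88 in knockout cells and 3.77 to 3.87 in wild-type cells with saline, and 3.93 to 3.96 in knockout cells and 3.81 to 3.92 in wild-type cells with R848. S100a9 was higher in knockout cells averaged over treatments (0.30, limma adjusted p = 0.0375), and Elane did not pass. The part of these markers in the interferon result and in that of Stat2 was not tested.

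In promoter windows, 9 of the 16 interferon-induced genes with a window held the interferon core, as did that of Stat2, against 3.99% of all 27025 genes.

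**Figure D5:**
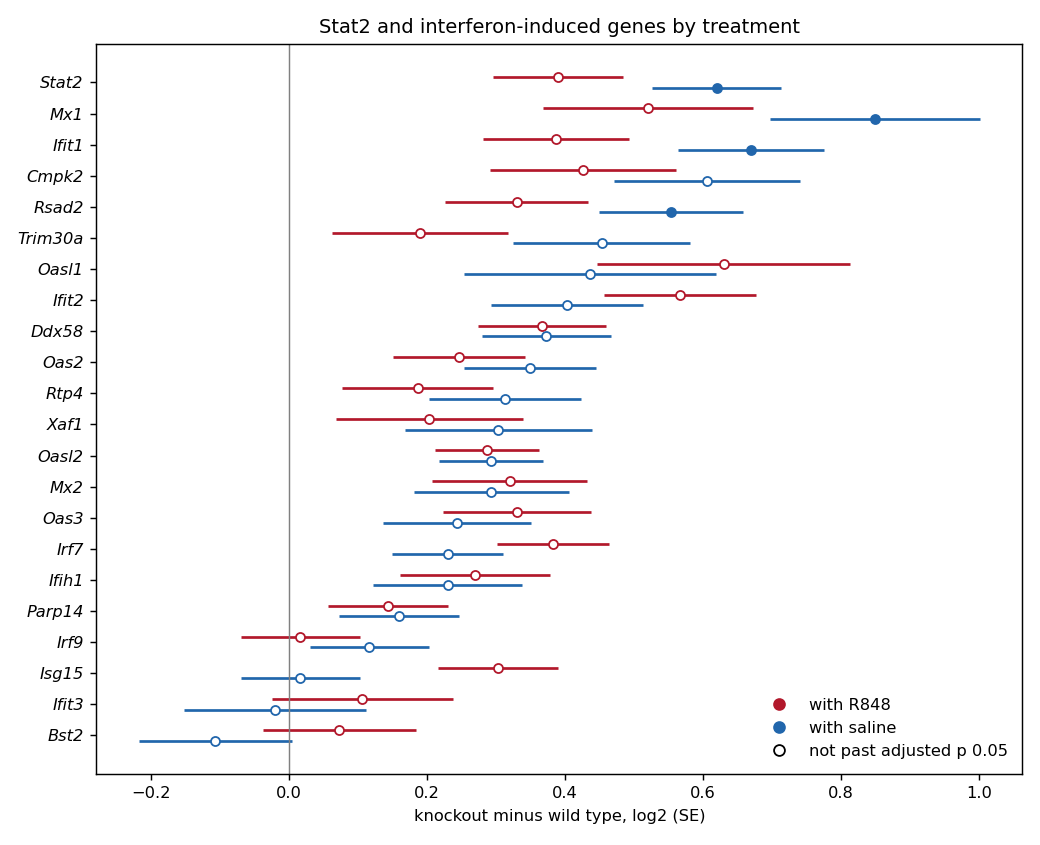
Knockout minus wild type (log2, bars give the SE) for Stat2 and the 21 interferon-induced genes with R848 and with saline, 3 arrays a group; open points did not pass an adjusted p of 0.05. Stat2, Mx1, Ifit1 and Rsad2 are filled with saline, no point is filled with R848, and Irf9, Ifit3 and Bst2 lie near 0.

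For each member the genes with the most similar pattern were found by the root mean square difference over the 12 arrays, each gene centred on its own mean. Stat2 was closest to Ifi204 (0.093), Ddx58 (0.099) and H2-Q4 (0.116), of which Ifi204 and Ddx58 encode nucleic acid sensors and H2-Q4 a class I histocompatibility molecule. Tyk2 was closest to Nfe2l2 (0.065), Ogfr (0.066) and Dcp1a (0.077). Stat4 was closest to Tlr7 (0.059), the receptor gene for R848, whose change with R848 was -0.45 in knockout cells and -0.34 in wild-type cells. Jak2 was closest to Itgb8 (0.075), Pstpip2 (0.088) and Rapgef2 (0.090), and Stat5a to Pik3r5 (0.113), Arhgap26 (0.121) and Mllt6 (0.125). The nearest genes were Rasa4 for Stat3 (0.072), Gnpat for Stat6 (0.065), Med13 for Jak1 (0.060) and Ythdc1 for Stat5b (0.079). The treatment contrast of these 12 arrays enters every one of these distances. The distances are not comparable between members, whose own SD over the arrays differed. It was 1.51 for Jak2, 0.95 for Stat5a, 0.52 for Stat2, 0.51 for Stat3 and 0.42 for Tyk2. For Stat6 it was 0.27, for Stat4 0.26, for Jak1 0.25 and for Stat5b 0.20.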

How the data were processed

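Total RNA was amplified and labelled before hybridization, per the labels' protocols. Affymetrix Expression Console and RMA made the values, per the submitters' processing notes, and the deposited values are log2 intensities between 2.15 and 12.85 with array medians of 4.49 to 4.57. Their versions and settings were not given in the sources used here, and strips and scan dates were not used here.

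The platform table gave 23521 of 34472 rows 1 symbol, 1814 several and 9137 none; 23328 rows matched RefSeq, which changed 0 symbols. For genes with several rows the row with the highest mean was used. Genes above the 40th percentile of named rows on at least 3 arrays were tested. All 12 arrays entered 1 model with a mean per group (limma 3.58.1, R 4.3.3, lmFit and eBayes), with Benjamini-Hochberg adjustment per contrast over 14079 genes and a threshold of 0.05. Errors beside differences are limma's SE, intervals are 95%. The fit was tested on simulated data.

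The members and gene lists were chosen with earlier results of these data known. All members were named. Of each list, named genes came from the up to 6 per R848 comparison and 4 per genotype comparison with the largest change past the threshold. Not every such gene was named, and Mx2, Ch25h, Ccl24 and Spred2 are examples left out. Other listed genes that are named, such as Irf9, Ifnb1, Ifna4, Socs2, Cish, Ifnar1 and Il6st, were chosen after their values were seen. Same-numbered knockout arrays deviated together, with residual correlations of 0.27, 0.17 and 0.28 (minimum 0.1). The labels do not state this pairing, which was seen in the data. Correlations of this size were not particular to knockout arrays. Same-numbered wild-type arrays had 0.25, -0.06 and 0.23, and replicate 2 with R848 and replicate 3 with saline of wild type had 0.24. Replicate 1 with R848 of knockout and of wild type had 0.33. Genotype differences averaged over treatments count the saline and R848 arrays of a genotype as independent, and such a pairing would make their p-values too small. Alternatives were other filters, centring, cyclic loess, array weights, an intensity trend, replicate blocks, fewer arrays, all rows of a gene and a minimum log2 change of 1.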

Additional observations from a re-analysis of the deposited data

How the results depend on the processing

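Of 63 member results (9 members in 7 contrasts), 27 kept direction and side of the threshold under all 13 alternative settings and all 12 fits without 1 array. With a minimum log2 change of 1 the members passing were 2 in knockout and 3 in wild-type cells for R848, 2 averaged, and 0 for genotype with saline and averaged. For genotype with saline the count was 0 with only the arrays compared and 0 with the replicate block within them (Stat2 adjusted p = 0.104), and 0 to 1 without single arrays. The replicate block in the fit of all 12 arrays kept Stat2 with saline at 0.62 (limma adjusted p = 0.0142). With only the arrays compared and no block, the Stat2 call was already lost (limma adjusted p = 0.0755), so its loss was not particular to the block. Among the other member calls, the replicate blocks changed only that of Stat5b with R848 in knockout cells. Across all genes the saline genotype count of 47 became 99 with the replicate block, 14 with it within the arrays compared, 8 with only those arrays and 10 without replicate 3 of wild type with saline. The genotype count averaged over treatments, 251, became 118 with a random block for each genotype and replicate number, where Stat2 still passed.

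Centring on the tested genes, chosen after seeing the data, moved the median R848 change of all genes to 0.12 in knockout and 0.11 in wild-type cells. The share of higher genes among those called was then 63.6% in knockout and 62.2% in wild-type cells, with cyclic loess 49.4% in knockout and 48.5% in wild-type cells, and as reported 37.4% in knockout and 38.3% in wild-type cells. Stat4 (knockout -0.27, wild type -0.28) and Stat6 (-0.35 in both) still fell and Stat5b passed (knockout 0.42, wild type 0.32); with cyclic loess Stat5b passed in knockout cells (0.35).

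Sign changes concerned values that did not pass, and the cause was not tested. With cyclic loess, array weights and tested-gene centring, in that order, the genotype difference of Stat3 with R848 was 0.039, 0.012 and 0.033 and that of Stat5b averaged over treatments 0.046, 0.000897 and 0.023. The interaction was 0.019, 0.013 and 0.0033 for Stat6 and 0.023, 0.033 and 0.0067 for Jak1, and for Stat4 0.011 and 0.0067 with array weights and tested-gene centring. Without single arrays, genotype differences ranged with saline from -0.0967 to 0.0283 (Stat5b), -0.0617 to 0.108 (Jak1) and -0.0583 to 0.0667 (Jak2). With R848 they ranged from -0.0483 to 0.0167 (Stat3), -0.102 to 0.17 (Stat5b), -0.0167 to 0.0933 (Stat6) and -0.01 to 0.10 (Jak1). Averaged they ranged from -0.0775 to 0.0583 (Stat5b) and -0.0158 to 0.0692 (Jak1). Interactions ranged from -0.0733 to 0.0617 (Stat4), -0.0483 to 0.223 (Stat5b), -0.07 to 0.04 (Stat6), -0.0783 to 0.0917 (Jak1) and -0.01 to 0.0617 (Tyk2). Stat4 had no value under the stricter filter on dim rows.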
